A study of Mus musculus with 6 samples.

Results

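Ionotropic receptors are membrane channels that open when a transmitter binds them, so that ions flow within milliseconds. Each channel is built from several subunits, and the subunits that a cell makes decide which transmitter opens the channel, whether calcium passes and where the channel is anchored. Glutamate acts on AMPA, kainate and NMDA receptors, to which the delta subunits are related. GABA and glycine open chloride channels, acetylcholine opens nicotinic receptors, ATP opens P2X receptors and serotonin opens 5-HT3 receptors. Cortical astrocytes are known to respond to glutamate, GABA and ATP through channels of this kind as well as through G-protein-coupled receptors.

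The subunit genes of these channels were examined in upper-layer astrocytes (ULAs, layers II–IV) and deep-layer astrocytes (DLAs, from layers V and VI) in mouse somatosensory cortex. They were chosen by symbol alone, as all rows of the expression table named for a GABA-A, GABA-A rho, AMPA, kainate, NMDA, delta, glycine, nicotinic, P2X or 5-HT3 receptor subunit. The rule found 67 genes of the 43383 in the table, all of which carry a RefSeq accession. All mice were male, 4 weeks old and of the Aldh1l1-eGFP line, in which the Aldh1l1 promoter drives GFP in astrocytes. GFP-positive cells were sorted from the dissected layers of 3 brains, so that each brain contributed 1 ULA and 1 DLA library (6 in all), and no other genotype or treatment was compared. Layer I, the meninges, the corpus callosum and parts of layers IV and V had been removed. Values are RPKM, that is, reads scaled to the length of the mRNA and to the number of mapped reads, so levels of different genes can be set side by side within a library as far as the mRNA models are right.

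The libraries held the markers of their label. Library depth, as recovered from the RPKM steps of short rows, was 19655000 to 29555000 reads per library. The 10 astrocyte markers summed to between 10685 and 12233 RPKM per library. The 13 neuronal markers summed to 12.2 to 15.3 RPKM, with Snap25 at 3.47 to 4.99 RPKM, whereas Slc17a7 and Gad1, which mark excitatory and inhibitory neurons, stayed at or below 0.61 and 0.25 RPKM. Microglial markers summed to 9.14 to 14.9 RPKM, endothelial markers to 0.85 to 2.58 RPKM and markers of pericytes and smooth muscle to 11.4 to 22.8 RPKM. Oligodendrocyte markers, by contrast, summed to 86.6 to 175.3 RPKM in ULAs and 174.4 to 272.5 RPKM in DLAs, and 5 of the 6 that averaged over 1 RPKM were higher in DLAs at an adjusted p-value under 0.05 (limma). Markers of oligodendrocyte precursors summed to 85.4 to 96.8 RPKM in ULAs and 97.1 to 133.9 RPKM in DLAs, with Olig1 at 79.96 to 125.5 RPKM and Olig2 at 4.91 to 19.1 RPKM, while the defining marker Pdgfra was at or below 0.07 RPKM. Of the 6 markers of pericytes and smooth muscle, 4 were higher in ULAs and 0 in DLAs in each brain. Among them Rgs5 averaged 2.25 RPKM in ULAs and 0.90 RPKM in DLAs (adjusted p = 0.0455, limma). The astrocyte marker Gfap averaged 11.7 RPKM in ULAs and 23.5 RPKM in DLAs (adjusted p = 0.00556, limma). No gene of these lists was listed at 0 in all 6 libraries.

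A small part of the family carried nearly all of its mRNA. Of the 67 subunits, 6 averaged at least 100 RPKM over the 6 libraries, 12 averaged at least 10 RPKM and 23 averaged at least 1 RPKM. The remaining 44 averaged under 1 RPKM, and 8 of these were listed at 0 in every library. The most abundant subunit was Gabrb1, the GABA-A beta 1 subunit, which ranked first in each of the 6 libraries. Behind it came Gria2 of the AMPA receptor, Glrb of the glycine receptor and Gabrg1 of the GABA-A receptor. The levels of these 3 genes followed so closely that neighbours in this order did not differ beyond the spread of their ratios over the libraries.

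**Figure D1:**
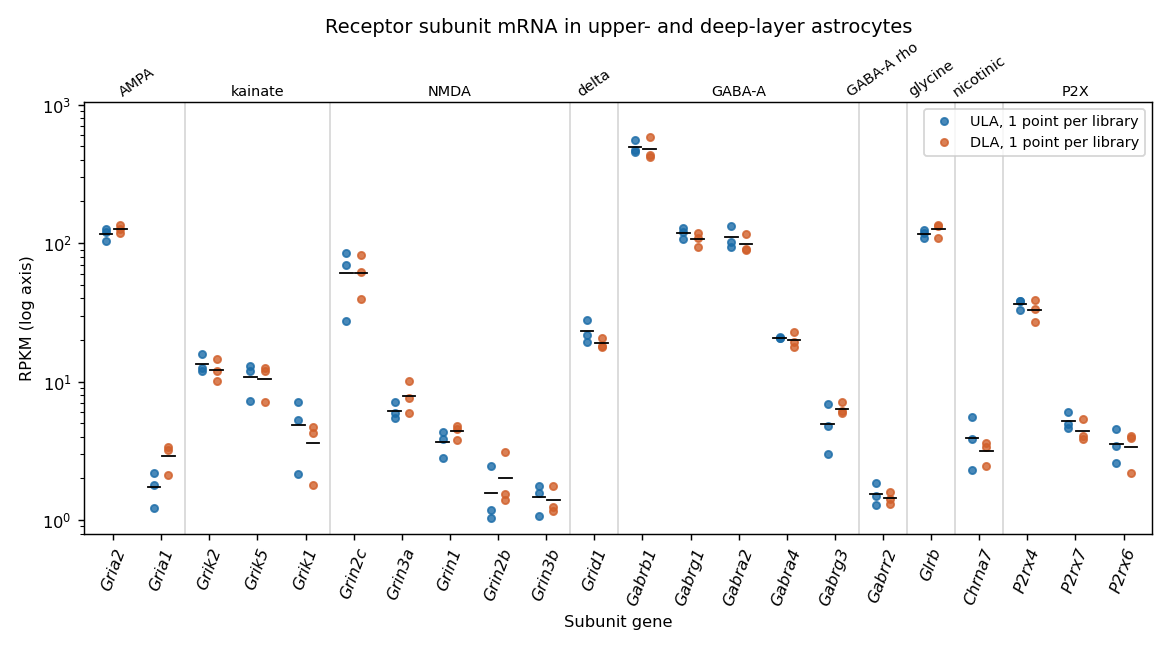
RPKM (log axis) of 22 subunit genes with a mean of at least 1 RPKM, grouped by receptor class, with 1 point per library, ULAs in blue and DLAs in orange, and the mean of each layer as a black line. Gabrb1 lies near 500 RPKM, a group of Gria2, Glrb, Gabrg1 and Gabra2 near 100 RPKM, and the points of ULAs and DLAs overlap for all 22 genes.

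The layers were compared for the 23 subunits over 1 RPKM with limma on the log2(RPKM + 1) scale, with the brain as a term, in a fit of all 13999 genes of that level and with p-values adjusted over all of them by the Benjamini-Hochberg method. In this test 0 of the 23 subunits differed between ULAs and DLAs at an adjusted p-value under 0.05, where 1.63% of all genes tested did (0.714% higher in ULAs and 0.914% higher in DLAs). The lowest adjusted p-value of a subunit was 0.133. At an unadjusted p-value under 0.05 there were 2 subunits, Gria1 and Gabrg3, against 16.4% of all genes. For 0 of the 23 subunits did the 3 ULA values lie apart from the 3 DLA values, as they did for 15.9% of all genes tested. On the log2(RPKM + 1) scale the 1 added to RPKM shrinks the change of a gene near or under 1 RPKM. The log2 fold change (ULA over DLA) on this scale was within 0.5 of 0 for 22 of the 23 subunits and for 95.9% of all genes. Its median was 0.06 over the subunits and −0.03 over all genes.

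These intervals set how large a layer difference could have gone unseen. For the 14 subunits with a mean of at least 5 RPKM, the 95% confidence intervals reached from 0.21 to 0.39 on either side of the estimate on the log2 scale. The interval that reached farthest from 0, that of Gabrg3, ended at −0.73. In simulated data for the same 13999 genes, with changed genes drawn from those over 5 RPKM, 48.5% of those with a true log2 change of 0.5 and 100% of those with a change of 1 were called. With 200 changed genes each, there were 8 false calls at a change of 0.5, 9 at 1 and 20 at 2. Recovery of changed genes under 5 RPKM was not simulated. A p-value over the threshold therefore leaves room for small differences.

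**Figure D2:**
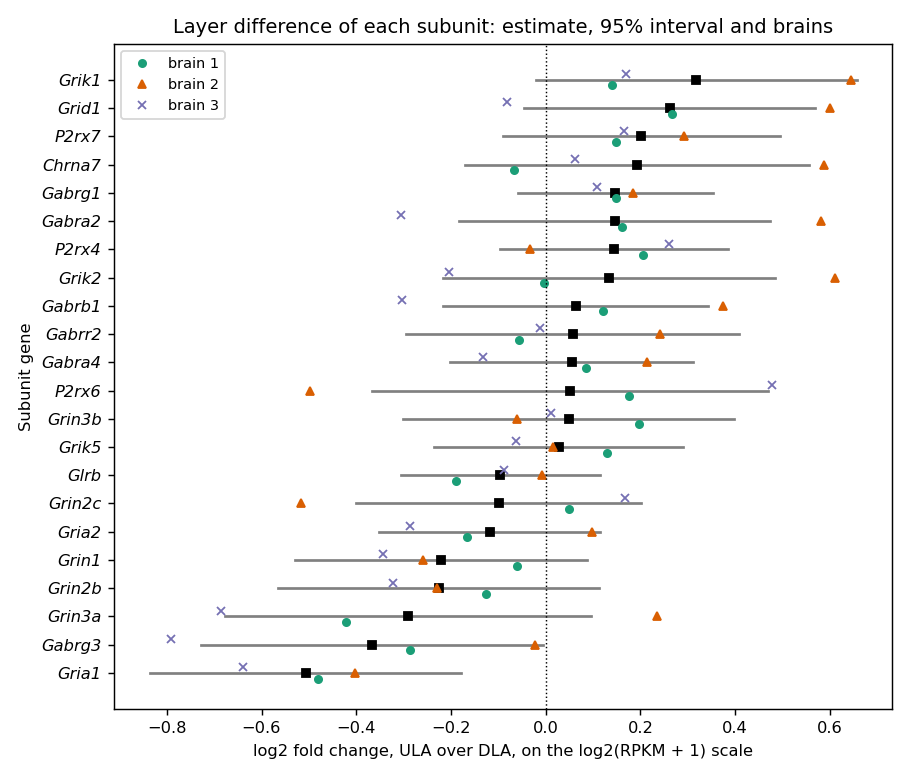
log2 fold change (ULA over DLA, log2(RPKM + 1) scale) of 22 subunits, with the limma estimate as a black square, its 95% confidence interval as a grey line and the ratio in each brain as a coloured symbol. Of the 22 intervals, those of Gria1 and Gabrg3 lie below 0. For Gabrb1, Gabra2, Gabra4, Grid1 and Grik5 the ratio of brain 3 lies on the other side of 0 from those of brains 1 and 2.

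GABA-A receptors are chloride channels made of alpha and beta subunits, with a gamma, delta or rarer subunit. Of the 16 GABA-A subunits, 5 averaged over 5 RPKM and 11 under 1 RPKM. Gabrb1 had 455.9, 560.5 and 471.7 RPKM in ULAs and 419.3, 432.3 and 582.5 RPKM in DLAs, the values of brains 1, 2 and 3 being given in that order here and in what follows. The highest and the lowest value were both in DLAs, and the log2 fold change was 0.06 (95% interval −0.22 to 0.34, adjusted p = 0.846, limma). Gabrg1, a gamma subunit whose receptors are less sensitive to benzodiazepines, was at 120.1, 106.7 and 128.7 RPKM in ULAs and 108.3, 93.8 and 119.3 RPKM in DLAs. In each brain the ULA value was the higher one, but by less than the range over the brains within either layer (log2 fold change 0.15, SE 0.09, adjusted p = 0.46).

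The alpha subunits bind GABA together with the beta subunits. Gabra2 had 101.6, 134.1 and 94.5 RPKM in ULAs and 90.7, 89.3 and 116.9 RPKM in DLAs. The ULA value was higher in brains 1 and 2 and lower in brain 3 (log2 fold change 0.15, SE 0.15, adjusted p = 0.666). Gabra4, which elsewhere is found mostly in extrasynaptic receptors, had 20.5, 20.8 and 20.9 RPKM in ULAs and 19.3, 17.8 and 23.0 RPKM in DLAs, so that the ULA values fell inside the DLA range (adjusted p = 0.853). Gabrg3 was lower, at 4.81, 6.95 and 3.01 RPKM in ULAs and 6.09, 7.08 and 5.94 RPKM in DLAs. Its ULA value was the lower one in 3 of 3 brains, by a log2 fold change of −0.37 (95% interval −0.73 to −0.01, unadjusted p = 0.0468, adjusted p = 0.297, or 0.176 to 0.706 over the alternatives). The size depended on the brains, with −0.16 when brain 3 was left out and −0.54 when brain 2 was.

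The make-up of the GABA-A class was nearly the same in each library. Gabrb1 made up 64.6 to 68.5% of the summed RPKM, Gabrg1 12.8 to 17.8%, Gabra2 13.1 to 16.1% and Gabra4 2.50 to 2.99%. The less common subunits were close to 0, with the delta subunit Gabrd at 0.03 to 0.33 RPKM, and Gabra6 and Gabrq listed at 0 in all libraries.

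**Figure D3:**
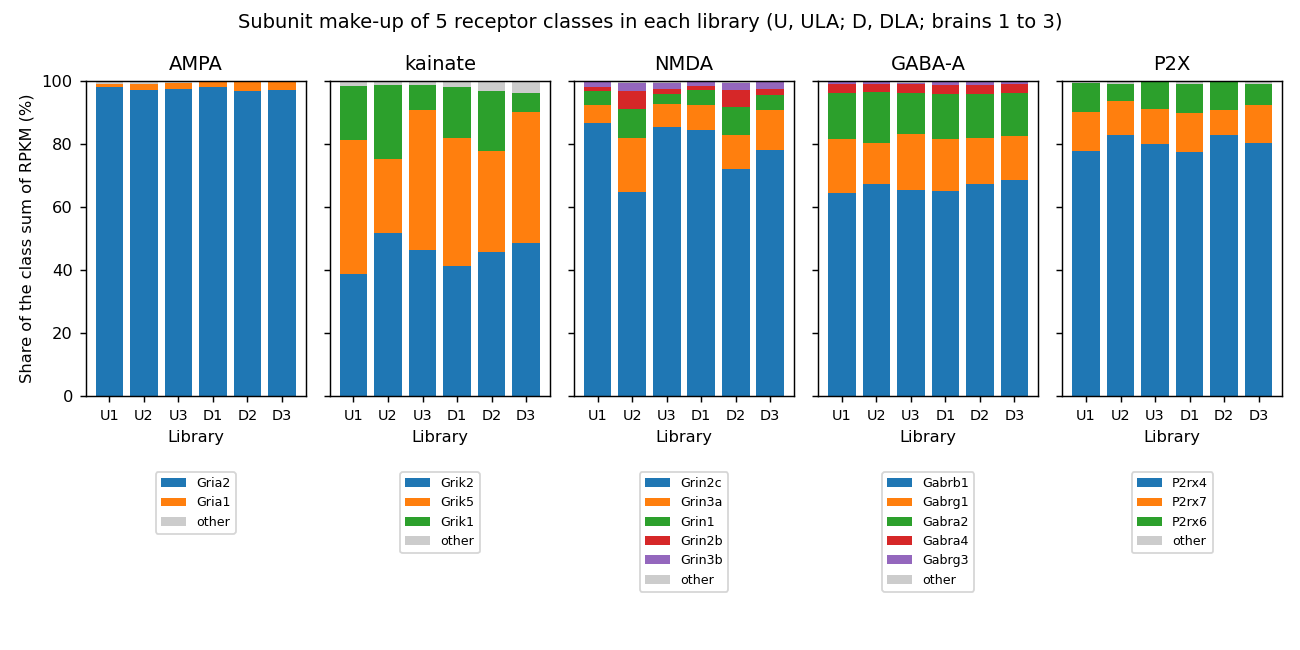
Share (%) of each subunit in the summed RPKM of its receptor class in each library, for 5 classes, with U for ULA, D for DLA and the brain number. Gria2 fills at least 96.9% of the AMPA class in each library, whereas the share of Grin2c in the NMDA class runs from 64.9 to 86.8% and is lowest in both libraries of brain 2.

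The genes of most GABA-A subunits lie in clusters, and the abundant ones shared a cluster. On chromosome 5 (mm9), Gabrg1, Gabra2, Gabra4 and Gabrb1 lie within chr5:71142286-72528483, and these 4 genes made up 98.6 to 99.1% of the summed RPKM of the GABA-A class. Of the cluster on chromosome 11, Gabrb2 reached at most 1.70 RPKM and Gabra6 was listed at 0. On chromosome 7, Gabrg3 did not exceed 7.08 RPKM and Gabra5 not 0.53 RPKM, and the cluster of Gabre, Gabra3 and Gabrq on chromosome X summed to at most 0.14 RPKM. No test was made of this arrangement, since genes of a cluster are not independent.

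**Figure D4:**
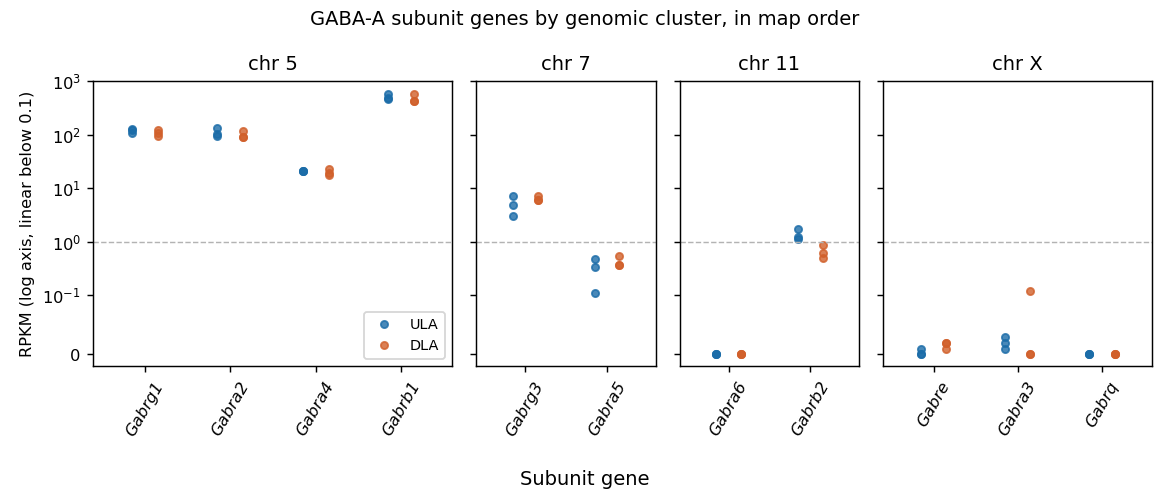
RPKM of GABA-A subunit genes by chromosomal cluster, in map order within each cluster (log axis, linear below 0.1), with 1 point per library, ULAs in blue, DLAs in orange and a dashed line at 1 RPKM. The points of the chromosome 5 cluster all lie at or above 17.8 RPKM, and those of Gabra6 and Gabrb2 on chromosome 11 lie at or below 1.70 RPKM.

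Because this cluster carries the GABA-A signal in both layers, the 250 bases before the annotated starts of its 4 genes are shown, with those of Gabra6, a gene of the chromosome 11 cluster that was listed at 0 in all libraries, for contrast. The sequences are those of RefSeq on GRCm38.p6, whose coordinates differ from the mm9 ones above, each on the strand of its gene, 5′ to 3′, with CpG dinucleotides in capitals. Gabrb1 has 2 starts in that table, and both are given.
Gabrb1, chr5:71657671-71657920, plus strand: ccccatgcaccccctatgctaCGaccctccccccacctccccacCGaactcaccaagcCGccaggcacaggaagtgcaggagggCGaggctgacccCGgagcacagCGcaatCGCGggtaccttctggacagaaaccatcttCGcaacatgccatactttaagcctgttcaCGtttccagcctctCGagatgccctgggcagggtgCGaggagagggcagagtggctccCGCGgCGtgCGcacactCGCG
Gabrb1, chr5:71699682-71699931, plus strand: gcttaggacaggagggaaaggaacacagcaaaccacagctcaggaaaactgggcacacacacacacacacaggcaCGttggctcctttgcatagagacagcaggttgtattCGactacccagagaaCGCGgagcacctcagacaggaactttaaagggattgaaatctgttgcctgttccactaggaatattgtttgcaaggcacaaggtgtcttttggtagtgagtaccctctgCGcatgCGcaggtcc
Gabra4, chr5:71658309-71658558, minus strand: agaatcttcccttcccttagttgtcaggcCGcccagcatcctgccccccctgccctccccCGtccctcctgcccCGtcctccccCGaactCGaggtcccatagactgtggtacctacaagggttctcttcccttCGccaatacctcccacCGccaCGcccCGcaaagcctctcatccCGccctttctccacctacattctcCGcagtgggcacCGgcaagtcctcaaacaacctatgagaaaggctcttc
Gabra2, chr5:71095850-71096099, minus strand: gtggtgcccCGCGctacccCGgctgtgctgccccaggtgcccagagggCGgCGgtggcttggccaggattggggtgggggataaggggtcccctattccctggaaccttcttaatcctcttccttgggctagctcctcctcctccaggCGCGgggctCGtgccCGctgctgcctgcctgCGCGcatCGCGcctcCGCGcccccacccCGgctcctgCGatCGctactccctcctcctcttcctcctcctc
Gabrg1, chr5:70842618-70842867, minus strand: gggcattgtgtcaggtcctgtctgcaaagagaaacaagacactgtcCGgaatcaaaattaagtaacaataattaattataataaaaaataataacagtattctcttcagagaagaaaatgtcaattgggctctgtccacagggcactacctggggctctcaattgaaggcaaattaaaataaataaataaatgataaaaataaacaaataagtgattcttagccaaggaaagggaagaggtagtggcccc
Gabra6, chr11:42321073-42321322, minus strand: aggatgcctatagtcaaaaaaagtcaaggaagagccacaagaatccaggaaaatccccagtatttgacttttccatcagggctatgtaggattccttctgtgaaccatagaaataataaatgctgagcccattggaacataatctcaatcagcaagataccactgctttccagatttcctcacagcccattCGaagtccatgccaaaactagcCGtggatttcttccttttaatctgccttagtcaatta

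These windows did not look alike. That of Gabra2 and the first of Gabrb1 each hold 18 CpG dinucleotides, a number reached by 21.7% of the 32851 windows in the RefSeq table. Gabra4 has 12, the second start of Gabrb1 has 6, Gabra6 has 2 and Gabrg1, one of the most abundant subunits, has 1. The first start of Gabrb1 and that of Gabra4 lie on opposite strands within 388 bases, and the transcripts from these starts run across each other. The Gabrb1 row that was measured starts at mm9 chr5:72091255, past the end of the Gabra4 row at 72049547. The measured rows therefore do not overlap, and that of Gabrb1 does not begin at its first start. The letters TATAAA, searched on both strands, were found in none of these 6 windows and in 12.4% of all windows. Among all subunits, 46 were matched to 52 windows, with a median of 12 CpG for those over 1 RPKM and 7 for those under 1 RPKM, against 6 for all windows. These counts are a description of the windows only.

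AMPA receptors carry fast excitatory currents, and their GRIA2 subunit, after RNA editing, keeps the channel closed to calcium. Gria2 (mm9 chr3:80488858-80606713) had 120.7, 127.1 and 104.3 RPKM in ULAs and 135.5, 118.8 and 127.3 RPKM in DLAs. The layers overlapped (log2 fold change −0.12, 95% interval −0.35 to 0.12, adjusted p = 0.615), and Gria2 alone made up 96.9 to 98.2% of the AMPA sum. Another row of the table, at 82.9 RPKM, shares 111 exon bases with Gria2, which is 1.43% of its length.

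Gria1, whose receptors admit calcium in the absence of GRIA2, was far lower, and it had the largest layer difference of the 23 subunits. Its RPKM was 1.23, 2.20 and 1.8 in ULAs and 2.11, 3.23 and 3.36 in DLAs, from 180 to 594 reads. It was lower in ULAs in 3 of 3 brains, while the highest ULA value lay just above the lowest DLA value. The log2 fold change was −0.51 (SE 0.15, 95% interval −0.84 to −0.18, unadjusted p = 0.00643), and the adjusted p-value of 0.133 did not pass (0.0898 to 0.5 over the alternatives). With 0.1 instead of 1 added to RPKM, the log2 fold change of Gria1 was −0.71. Of the oligodendrocyte markers 6 of 7 were higher in the DLAs of each brain, and of the 6 precursor markers 2 were higher in DLAs and 1 in ULAs in each brain, and their part in the Gria1 values was not tested. In sorted bulk cells, a larger number of cells with a transcript and more transcript per cell cannot be told apart.

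Gria3 and Gria4 averaged under 1 RPKM and were not part of the test. Gria3 had 0.99, 1.28 and 0.70 RPKM in ULAs (97 to 170 reads) and 0.31, 0.41 and 0.26 RPKM in DLAs (40 to 43 reads), so that all ULA values lay above all DLA values. With all genes over 0.5 RPKM admitted to the fit, a threshold chosen after these values were seen, its log2 fold change was 0.58 (SE 0.16, unadjusted p = 0.00482) with an adjusted p-value of 0.13. The 1 added to RPKM shrinks this value, as the Gria3 means were 0.99 RPKM in ULAs and 0.33 RPKM in DLAs. Of the 13 neuronal markers, 3 were higher in ULAs and 2 higher in DLAs in each brain, their sums being 14.0 to 15.3 RPKM in ULAs and 12.2 to 14.5 RPKM in DLAs, and their part in the Gria3 values was not tested. Gria4 stayed between 0.03 and 0.13 RPKM.

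NMDA receptors need the GRIN1 subunit, which is joined by GRIN2 or GRIN3 subunits, and pass calcium when glutamate and glycine or D-serine bind together. Grin2c (mm9 chr11:115110483-115128557), whose channels are only weakly blocked by magnesium, was the main NMDA transcript and varied more between brains than between layers. It had 85.1, 27.3 and 69.4 RPKM in ULAs and 82.2, 39.5 and 61.7 RPKM in DLAs. Both libraries of brain 2 were below all the others. A row on the other strand at 90.5 RPKM shares 1.86% of the exon bases of Grin2c. The spread over the 6 libraries, 1.60 on the log2(RPKM + 1) scale, was larger than that of 97.5% of the genes tested, for which the median was 0.51. Between layers the log2 fold change was −0.10 (95% interval −0.40 to 0.20, adjusted p = 0.76).

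The other NMDA subunits were much lower. Grin1 had 4.34, 3.85 and 2.79 RPKM in ULAs and 4.57, 4.80 and 3.81 RPKM in DLAs, which put Grin2c 7.10 to 24.9 times as high as its obligatory partner in the same library. Part of the Grin1 signal is uncertain, since 30.9% of its exon bases overlap a row on the other strand, E130003G02Rik, and no source states that strand was used. Grin3a, a subunit that lowers calcium entry, had 5.45, 7.18 and 5.90 RPKM in ULAs and 7.64, 5.95 and 10.1 RPKM in DLAs, higher in DLAs in 2 of 3 brains (log2 fold change −0.29, SE 0.17, adjusted p = 0.436). Its log2 fold change was −0.09 without brain 3 and −0.55 without brain 2. Grin2b and Grin3b ranged from 1.04 to 3.08 and from 1.08 to 1.77 RPKM. Grin2a and Grin2d did not exceed 0.30 and 0.21 RPKM. For Grin1 and Grin2b the DLA value was the higher one in 3 of 3 brains, as for 5 of the 23 subunits and 23.2% of all genes.

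Kainate receptors combine GRIK1 to GRIK3, which form channels by themselves, with GRIK4 or GRIK5, which need a partner. Grik2 had 11.97, 16.0 and 12.5 RPKM in ULAs and 12, 10.1 and 14.5 RPKM in DLAs. Grik5 followed with 13.1, 7.20 and 11.9 RPKM in ULAs and 11.9, 7.11 and 12.5 RPKM in DLAs. Neither passed the test between layers, with log2 fold changes of 0.13 (95% interval −0.22 to 0.48) and 0.03 (−0.24 to 0.29), and Grik5, like Grin2c, was lowest in both libraries of brain 2. Grik1 was at 5.31, 7.18 and 2.14 RPKM in ULAs and 4.73, 4.23 and 1.79 RPKM in DLAs. ULAs had the higher value in 3 of 3 brains (log2 fold change 0.32, SE 0.15, adjusted p = 0.333), but brain 3 was lower than the other two in both layers by more than any layer difference within that brain. Leaving out brain 2 gave a log2 fold change of 0.15 for Grik1, and leaving out brain 1 gave 0.41. Grik3 was nearly absent, at most 0.03 RPKM. Grik4 had 0.34 to 0.45 RPKM in ULAs and 0.52 to 1.11 RPKM in DLAs, from 32 to 114 reads.

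**Figure D5:**
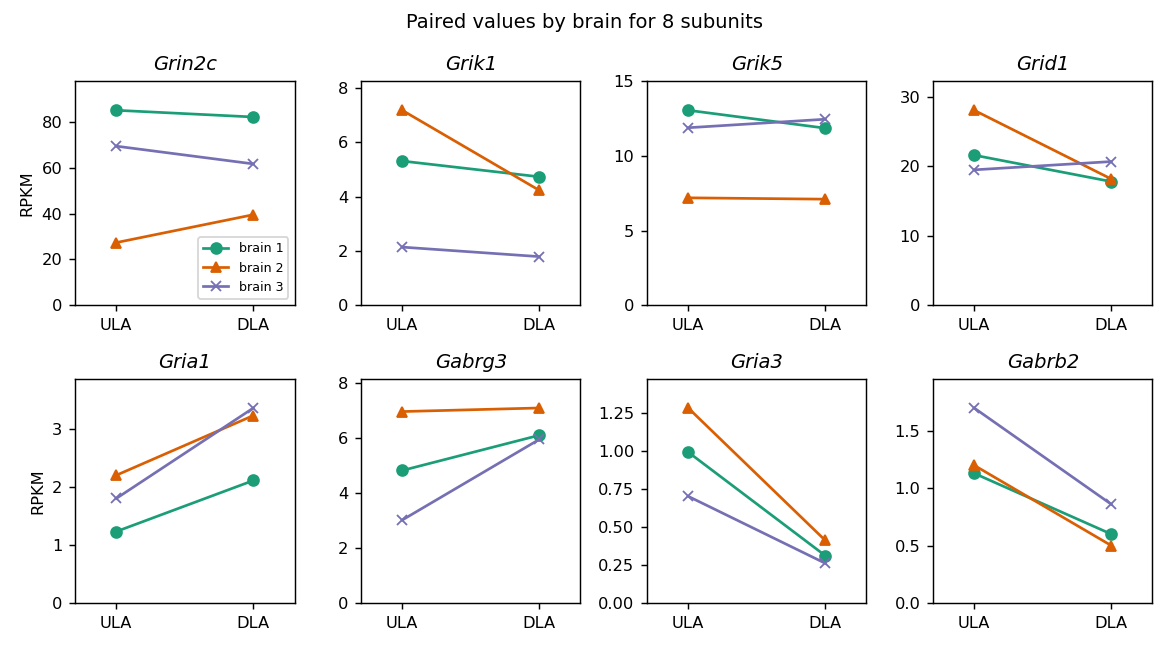
RPKM in the ULAs and DLAs of each brain for 8 subunits, with the libraries of a brain joined by a line and each axis starting at 0. Brain 2 lies lowest in Grin2c and Grik5 and brain 3 in Grik1, the lines of Gria1 and Gabrg3 rise towards DLAs in each brain, and those of Gria3 and Gabrb2, under 2 RPKM, fall in each brain.

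The delta subunits resemble glutamate receptors but are not opened by glutamate. Grid1 had 21.6, 28.1 and 19.5 RPKM in ULAs and 17.8, 18.2 and 20.7 RPKM in DLAs. The ULA value was higher in brains 1 and 2 and lower in brain 3, with a log2 fold change of 0.26 (SE 0.14, 95% interval −0.05 to 0.57, adjusted p = 0.376). Without brain 3 the change was 0.43 with an adjusted p-value of 0.0496, in a fit of 2 brains in which 426 genes favoured ULAs and 687 DLAs over the whole table. The log2 fold change of Grid1 was 0.09 without brain 2 and 0.26 without brain 1. Over the alternatives the adjusted p-value of Grid1 ran from 0.0496 to 0.888.

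Glycine receptors are chloride channels of alpha subunits, which bind glycine, and the beta subunit, which ties the receptor to the scaffold protein gephyrin. Glrb (mm9 chr3:80647526-80717546), the beta subunit, had 118.1, 108.9 and 125.2 RPKM in ULAs and 134.8, 109.6 and 133.2 RPKM in DLAs. It was lower in ULAs in 3 of 3 brains, hardly so in brain 2 (log2 fold change −0.10, 95% interval −0.31 to 0.12, adjusted p = 0.658). The alpha subunits were almost missing, so that Glrb made up 99.1 to 99.7% of the glycine receptor sum. Glra1 had 0.34, 0.60 and 0.18 RPKM in ULAs and 0.74, 0.61 and 0.78 RPKM in DLAs, from 7 to 32 reads. Glra4 was between 0.07 and 0.38 RPKM, and Glra2 and Glra3 did not exceed 0.01 and 0.04 RPKM. Gphn, the gene of gephyrin, was at 58.6 to 97.5 RPKM.

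Of the 16 nicotinic receptor subunits, Chrna7, which forms calcium-permeable channels by itself, was the single one over 1 RPKM. Its RPKM was 2.32, 5.58 and 3.83 in ULAs and 2.48, 3.38 and 3.63 in DLAs, with overlapping layers (log2 fold change 0.19, SE 0.16, adjusted p = 0.594). Chrnb1, the muscle-type beta subunit, had 0.89, 1.39 and 0.95 RPKM in ULAs and 0.67, 0.87 and 0.59 RPKM in DLAs. The other 14 did not exceed 0.31 RPKM, and 5 of them were listed at 0 in all libraries. The serotonin receptor subunit Htr3a was also listed at 0, and Htr3b did not exceed 0.06 RPKM. Of the rho subunits of GABA-A receptors, Gabrr2 was at 1.29 to 1.86 RPKM and the other two at or below 0.07 RPKM.

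The P2X receptors let calcium and sodium in when ATP binds. P2rx4 (mm9 chr5:123157566-123179051) was the main P2X transcript, with 38.5, 38.1 and 32.7 RPKM in ULAs and 33.3, 39.0 and 27.1 RPKM in DLAs. The ULA value exceeded the DLA value in brains 1 and 3 (log2 fold change 0.14, 95% interval −0.10 to 0.38, adjusted p = 0.539). P2rx4 made up 77.5 to 82.8% of the P2X sum. P2rx7, known from microglia for its low affinity for ATP, had 6.03, 4.94 and 4.64 RPKM in ULAs and 5.34, 3.85 and 4.03 RPKM in DLAs, higher in ULAs in 3 of 3 brains, as were 3 of the 23 subunits and 15.2% of all genes (log2 fold change 0.20, SE 0.13, adjusted p = 0.475). Of the 9 microglial markers, 2 were higher in ULAs and 1 higher in DLAs in each brain. Their sums were 14.0 to 14.9 RPKM in ULAs and 9.14 to 12.3 RPKM in DLAs, mostly from P2ry12 alone (11.6 to 12.6 and 7.76 to 10.2 RPKM), and their part in the P2rx7 values was not tested. The microglial gene Cx3cr1 itself was at 0.06 to 0.26 RPKM. P2rx6 ranged from 2.19 to 4.56 RPKM, and the other 4 P2X subunits did not exceed 0.31 RPKM.

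With low levels included, the ULA and DLA values did not overlap in 6 of the 59 subunits with any reads and in 11.2% of all genes with any reads, a share close to that of the subunits. Of these, Gabrb2, Gria3 and Chrnb1 were higher in ULAs and Grik4, Glra1 and Glra3 were higher in DLAs, Glra3 with at most 2 reads in a library. Gabrb2, at 0.998 RPKM on average just under the limit of the test, had 1.13, 1.20 and 1.70 RPKM in ULAs and 0.60, 0.50 and 0.86 RPKM in DLAs, from 74 to 343 reads. Its means were 1.34 RPKM in ULAs and 0.65 RPKM in DLAs. With genes over 0.5 RPKM admitted, its log2 fold change, which the 1 added to RPKM shrinks, was 0.50 (SE 0.15, unadjusted p = 0.00842, adjusted p = 0.166). At that limit 0 subunits under 1 RPKM passed, where 94 genes of 15883 were called higher in ULAs and 109 higher in DLAs. With no lower limit 0 of 27963 genes passed, so that no subunit could have stood out there.

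Proteins that carry, anchor or modulate these receptors were examined as a list of 39 genes, of which 24 averaged at least 1 RPKM. In the same fit 1 of the 24 was higher in ULAs and 0 were higher in DLAs, against 0.714% and 0.914% of all genes. At an unadjusted p-value under 0.05 there were 3 of the 24, against 16.4% of all genes, and the median log2 fold change was 0.10. That gene was Shisa9, which slows the recovery of AMPA receptors from desensitization, with 13.9, 12.4 and 11.2 RPKM in ULAs and 9.11, 7.66 and 7.40 RPKM in DLAs. All ULA values were above all DLA values (log2 fold change 0.58, SE 0.12, adjusted p = 0.0404), but the call was lost without the brain in the model, after a correction for mRNA length, without a variance trend, with more low genes admitted and without brain 1 or brain 2 (adjusted p-values over the alternatives from 0.0116 to 0.338).

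The most abundant genes of this list were Clptm1, which holds GABA-A receptors back in the cell, at 99.4 to 122.3 RPKM, Gabarap, which binds their gamma subunits, at 76.3 to 115.0 RPKM, and Gphn. Their log2 fold changes were 0.10, −0.26 and 0.07 (adjusted p = 0.654, 0.226 and 0.828). Lypd6, a modulator of nicotinic receptors singled out after its values were seen, had 43.0, 51.4 and 49.5 RPKM in ULAs and 32.3, 28.6 and 40.9 RPKM in DLAs, with no overlap (log2 fold change 0.50, SE 0.12, adjusted p = 0.0901). It passed among genes over 5 RPKM (adjusted p = 0.0495) and without brain 3 (adjusted p = 0.00218), and over all alternatives its adjusted p-value reached 0.427. Srr, the enzyme that makes the NMDA receptor ligand D-serine, was at 19.8 to 25.1 RPKM. Dao, the enzyme that degrades it, was also noted after its values were seen and had at most 0.01 RPKM in ULAs and 0.13 to 0.17 RPKM in DLAs, where 5 to 8 reads were behind each value.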

How the data were processed

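Astrocyte RNA was amplified with a SMART-Seq v4 kit, prepared with Nextera XT and sequenced as single-end reads of 36 bases. The authors deposited RPKM values per row together with the mRNA length in bases. The submitters' processing notes name mm9, bcl2fastq 1.8.4 and CASAVA 1.8.2, while the aligner and counting program are not given in the sources used here. The values behaved as depth-scaled counts (RPM) truncated to 2 decimals, divided by length and truncated again, so depth was read from rows of at most 500 bases. Counts of reads in the text come from this depth.

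Genes averaging 1 RPKM or more (13999 of 43383) were fitted on log2(RPKM + 1) with limma 3.58.1 (R 4.3.3), with a variance trend, the layer and the brain as terms, two-sided, and adjusted by Benjamini-Hochberg, and called at an adjusted p-value under 0.05. The replicate numbers of the labels were taken as brains, since libraries of the same number deviated together (r = 0.42, 0.33 and 0.34, against −0.20 to −0.16 between different numbers). These correlations cannot tell a shared brain from another factor that libraries of the same number share. The fit was tested on simulated data. Members and lists were chosen with earlier results of these data known. Every subunit with a mean of at least 1 RPKM is named, apart from results not reported here. Values in each library are given for those with at least 5 RPKM in a layer, an adjusted p under 0.05, or an unadjusted p under 0.05 with 1 direction in all brains, and the other values shown were chosen after they were seen. Of the accessory genes, those called and the 3 most abundant are named by rule. Lypd6, Srr and Dao are named in addition, Lypd6 and Dao after their values were seen. Alternatives were a fit without the brain, other pseudocounts, filters, scalings and variance models, a correction for mRNA length and leaving out each brain.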

Additional observations from a re-analysis of the deposited data

How the results depend on the processing

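Of 267 values of subunits under the alternatives, 253 kept their direction and their side of the threshold, 12 reversed and 2 passed it. The count of subunits called higher in ULAs was 0 under every alternative, except that it ranged from 0 to 2 when a brain was left out (Grid1 among them, without brain 3). Without the replicate block, 0 subunits were called either way and the whole-table counts fell from 100 and 128 genes (higher in ULAs and in DLAs) to 23 and 18. They were 77 and 78 after the length correction, 65 and 79 without a variance trend, 0 and 0 with no filter on low RPKM (limma, 27963 genes tested, 2799 at an unadjusted p under 0.05), and ranged from 104 to 426 and from 126 to 687 when a brain was left out. Of the accessory genes, 1 was called higher in ULAs, against 0 without the block, with no filter, after the length correction, without a variance trend and at 0.5 RPKM, 2 at 5 RPKM, and 0 to 3 when a brain was left out. Cell type markers called higher in ULAs were 1, against 0 without the block, with no filter and at 0.5 RPKM, and 1 to 2 when a brain was left out, and those higher in DLAs were 6, against 1 without the block and 0 with no filter.

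Reversed log2 fold changes were all small. When each brain was left out in turn, the value ran from −0.003447 to 0.32 for Chrna7, −0.071 to 0.37 for Gabra2, −0.10 to 0.30 for Grik2, −0.23 to 0.11 for Grin2c, −0.092 to 0.25 for Gabrb1, −0.024 to 0.15 for Gabra4, −0.035 to 0.11 for Gabrr2, −0.025 to 0.10 for Grin3b, −0.16 to 0.33 for P2rx6, −0.023 to 0.072 for Grik5 and −0.11 to 0.25 for Gphn. After the length correction that of Grik5 was −0.013. The causes were not tested. The threshold of 0.5 RPKM was chosen after seeing the data. Subunits under 1 RPKM rest on few reads, and 3 brains limit the precision of all layer differences.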
